A study of Mus musculus with 12 samples.

Results

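The 8 genes described here encode TALE homeodomain cofactors: the MEIS proteins (Meis1, Meis2 and Meis3), the PKNOX proteins, also called PREP (Pknox1 and Pknox2), and 3 of the PBX proteins (Pbx2, Pbx3 and Pbx4). They were chosen by gene symbol and are 8 of the 17901 genes in the deposited table. The rule uses no expression value, although the list was drawn up with earlier results of these data known, and all 8 passed the filter on low values. RNA was sequenced from TT2 mouse embryonic stem cells, an established line, in 4 groups of 3 libraries. The labels list genomic DNA as the molecule, but their protocol describes total RNA, and the libraries were treated as RNA. Wild-type (WT) cells and cells with a double knockout (DKO) of the zinc finger genes Rlf and Zfp292 were each sampled in ES medium with LIF, called serum/LIF, and after 72 hours in that medium without LIF and with 5 µM retinoic acid (RA). The comparisons therefore ask how RA changed each gene in each genotype, how the double knockout changed it in each medium, and whether the RA response differed between genotypes. The labels do not say how many clones each genotype came from. Replicates are called biological in the labels, without naming cultures or clones, so the p-values measure the spread between these libraries.

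TALE homeodomain proteins carry extra residues in a loop of the DNA-binding homeodomain. PBX proteins bind DNA as partners of HOX proteins, and MEIS and PKNOX proteins bind PBX proteins and help hold them in the nucleus. In the embryo these complexes act on enhancers of the hindbrain, limb and blood-forming lineages, and RA is a classical inducer of both Hox and Meis genes in cultured stem cells.

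The deposited annotation places the genes on mm10. Meis1 is on the minus strand at chr11:18880428-19018969, Meis2 on the minus strand at chr2:115861264-116065058, and Meis3 on the plus strand at chr7:16175395-16186510. Pknox1 is on the plus strand at chr17:31564773-31607693 and Pknox2 on the minus strand at chr9:36890979-37147322. Pbx2 is on the plus strand at chr17:34592259-34597400, Pbx3 on the minus strand at chr2:34171457-34372045 and Pbx4 on the plus strand at chr8:69832624-69872292. Each position covers 1 transcript of the gene.

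The sequence next to the start site is shown for Meis1, 1 of the 4 genes with the lowest levels per kb in WT serum/LIF, and for the gene with the highest, Pbx2, because the levels of the pair converged after RA. Both are from RefSeq on GRCm38.p6, written 5′ to 3′ on the strand of the gene, with CpG dinucleotides in capitals. The Pbx2 stretch is the 250 bases before the start (chr17:34592009-34592258, plus strand). The Meis1 stretch is 234 bases (chr11:19018986-19019219, minus strand), since the 16 bases next to the start lie in an annotated exon. The gene and strand of that exon were not checked.
Meis1: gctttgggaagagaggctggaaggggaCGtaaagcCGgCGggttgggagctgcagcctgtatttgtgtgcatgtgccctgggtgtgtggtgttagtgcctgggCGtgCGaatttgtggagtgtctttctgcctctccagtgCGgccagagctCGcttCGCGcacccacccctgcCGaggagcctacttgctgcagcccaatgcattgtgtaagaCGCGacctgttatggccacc
Pbx2: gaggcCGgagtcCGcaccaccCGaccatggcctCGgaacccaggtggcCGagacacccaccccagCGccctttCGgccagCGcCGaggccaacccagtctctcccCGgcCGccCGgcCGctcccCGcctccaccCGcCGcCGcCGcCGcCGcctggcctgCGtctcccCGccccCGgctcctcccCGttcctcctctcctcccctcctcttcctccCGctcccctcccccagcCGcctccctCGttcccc
The Pbx2 stretch held 27 CpG dinucleotides and the Meis1 stretch 12. Over the full 250 bases, the GC content was 77.6% for Pbx2, with more CpGs than 91.4% of 32851 RefSeq promoters. For Meis1 it was 59.6% with 13 CpGs, more than 68.5% of promoters. RefSeq promoters were matched for 5 of the 8 genes, and the other windows held 7 CpGs for Meis2, 12 for Meis3 and 12 for Pbx4, against a median of 6 over all promoters. Of the 250 bases, 170 lie in annotated exons for Meis2, 160 for Meis3 and 133 for Pbx4, so most of each of these windows is exon sequence.

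The letters of 3 binding motifs were searched on both strands in these 5 windows. They were the MEIS and PKNOX half-site TGACAG, the PBX-HOX site TGATNNAT and the RA receptor half-site AGGTCA. The half-sites can share letters, since TGACAG ends and AGGTCA begins with AG. None of the 5 windows held any of them. Among all promoters the shares with a match were 15.9%, 7.68% and 14.0% in that order. The absence says only that these letters are not in these windows.

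Each library held between 30869766 and 40236799 recovered reads in genes. The targeted genes matched the labels: Rlf had 3611 ± 96.3 normalized counts (SD, n = 3) in WT serum/LIF and 2611 ± 131 in WT after RA, with 6 reads over the 3 DKO libraries in serum/LIF and 1 after RA. Zfp292 had 4909 ± 324 and 3166 ± 363 normalized counts in WT and 0 reads in every DKO library. The stem cell label held in serum/LIF, where 8 markers of embryonic stem cells (Pou5f1, Nanog, Sox2 and others) summed to 111691 normalized counts in WT and 97953 in DKO. After RA that sum was 4268 in WT and 7109 in DKO, so the RA libraries no longer carry the level of the labelled cell type. One library, WT RA replicate 2, lay further from its replicates than any other (for its counts against each replicate, chi-square divided by the degrees of freedom was 10.2 and 14.4, and 5.08 for the remaining pair), and the number of the 8 genes called in each comparison did not change without it.

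All 8 genes differed between RA and serum/LIF in both genotypes. The RA cultures also lacked LIF, and the effects of RA and of LIF withdrawal cannot be told apart here, so every RA contrast below is of both together. Of the 8 genes, 7 were higher and 1, Pknox1, was lower after RA in WT, and the same counts held in DKO. A gene was called at an adjusted p under 0.05 (limma, Benjamini-Hochberg over 15750 genes). The RA contrast called 80.6% of all genes tested in WT, 41.4% as higher and 39.2% as lower. In DKO it called 78.3%, 40.2% as higher and 38.2% as lower. Being called after RA was thus the usual outcome for any gene. The median log2 fold change of the 8 genes was 1.69 in WT and 1.63 in DKO, against 0.04 and 0.04 over all genes tested. The authors' deposited table gave the same counts, 7 higher and 1 lower in each genotype.

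**Figure D1:**
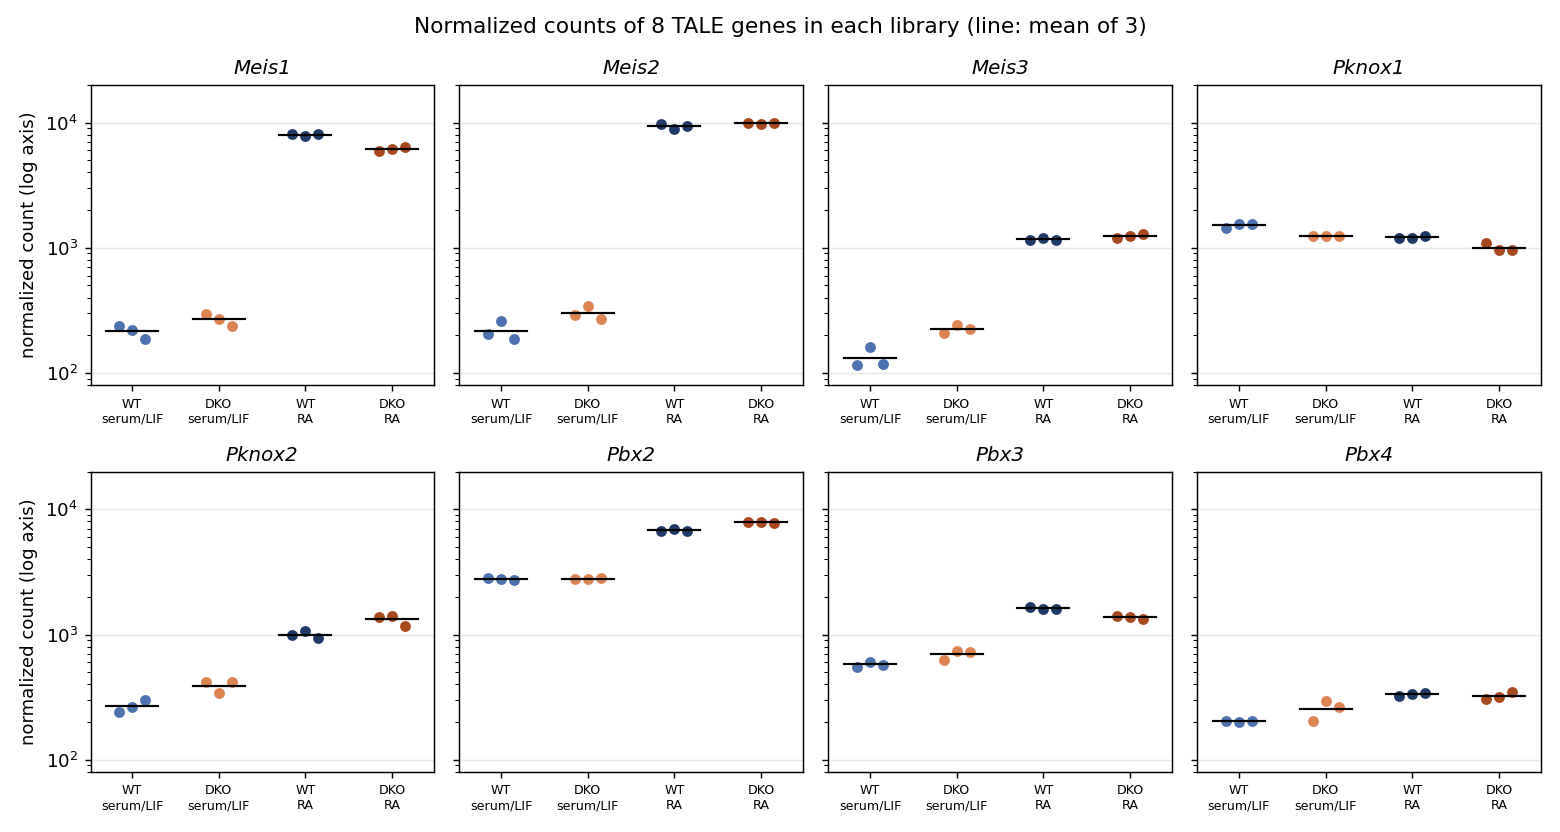
Normalized counts (log axis) of the 8 TALE genes in each library, by genotype and medium; each point is 1 library and each line the mean of 3. Meis1 and Meis2 lie between 187 and 345 in serum/LIF and between 5916 and 9874 after RA, whereas Pknox1 is lower after RA than in serum/LIF in both genotypes.

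Meis1 and Meis2 moved most. Meis1, known for its part in blood stem cells and in leukaemia with Hox genes, read 237, 219 and 187 normalized counts in the WT serum/LIF libraries and 8057, 7751 and 8129 after RA. In DKO it read 295, 271 and 239 in serum/LIF and 5916, 6202 and 6420 after RA. The libraries of the 4 groups did not overlap, which over all genes held for 81.5% between RA and serum/LIF in WT, 80.3% in DKO, 43.9% between genotypes in serum/LIF and 54.5% after RA. These shares also stand beside each statement on overlap for the genes below. DKO was above WT before RA and below it afterwards, but in serum/LIF the highest WT library (237) lay close to the lowest DKO library (239). The ratio of means, RA over serum/LIF, was 37.2 in WT and 23.0 in DKO. On the log2 scale the rise was 5.22 ± 0.08 (SE) in WT (limma adjusted p = 3.44e-25) and 4.53 ± 0.08 in DKO (limma adjusted p = 9.93e-24).

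Meis2, which acts in neural crest, heart and palate development, read 205, 258 and 188 normalized counts in WT serum/LIF and 9697, 8909 and 9467 after RA. DKO libraries read 289, 345 and 270 in serum/LIF and 9864, 9808 and 9874 after RA. Every DKO library was above every WT library in both media, but after RA the highest WT library (9697) lay close to the lowest DKO library (9808). The RA ratio was 43.1 in WT and 32.7 in DKO, or 5.44 ± 0.09 and 5.03 ± 0.09 on the log2 scale (limma adjusted p = 7.14e-21 and 3.61e-20).

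Meis3, which is best known from hindbrain patterning in frogs, had a smaller rise. It read 116, 161 and 117 normalized counts in WT serum/LIF and 1161, 1191 and 1148 after RA. In DKO it read 209, 239 and 224 in serum/LIF and 1204, 1231 and 1294 after RA. No library overlapped between genotypes in either medium, and the DKO values were the higher ones. Over all genes such a lack of overlap held for 43.9% in serum/LIF and 54.5% after RA. After RA the highest WT library (1191) lay close to the lowest DKO library (1204), and no difference was called (0.09 ± 0.11 on the log2 scale, limma adjusted p = 0.530). The ratio was 8.89 in WT and 5.55 in DKO, and the log2 rise was 3.16 ± 0.11 and 2.47 ± 0.11 (limma adjusted p = 1.77e-18 and 3.15e-16).

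The PKNOX pair went in opposite directions. Pknox1, which is needed for survival of the early epiblast, read 1450, 1555 and 1545 normalized counts in WT serum/LIF and 1204, 1187 and 1237 after RA. In DKO it read 1238, 1233 and 1253 in serum/LIF and 1086, 957 and 965 after RA. Pknox1 fell by 0.33 ± 0.06 on the log2 scale in WT (limma adjusted p = 3.66e-05) and fell by 0.31 ± 0.06 in DKO (limma adjusted p = 7.10e-05), and no RA library reached a serum/LIF library of its genotype. Pknox2, its paralog with a more restricted expression, read 239, 265 and 299 normalized counts in WT serum/LIF and 984, 1067 and 933 after RA. DKO libraries read 416, 343 and 415 in serum/LIF and 1376, 1403 and 1179 after RA. Pknox2 rose 3.71-fold in WT and 3.37-fold in DKO, by 1.89 ± 0.10 and 1.75 ± 0.10 on the log2 scale (limma adjusted p = 8.07e-15 and 4.51e-14), with DKO above WT in both media and without overlap.

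Among the PBX genes, Pbx2, which is broadly expressed in the embryo, read 2812, 2773 and 2750 normalized counts in WT serum/LIF and 6745, 6954 and 6715 after RA. In DKO it read 2758, 2773 and 2817 in serum/LIF and 7876, 7921 and 7828 after RA. The genotypes overlapped in serum/LIF and separated after RA, with DKO higher. Pbx2 rose 2.45-fold in WT (1.29 ± 0.04 on the log2 scale, limma adjusted p = 6.97e-20) and 2.83-fold in DKO (1.5 ± 0.04, limma adjusted p = 6.13e-21).

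Pbx3, which is needed in the hindbrain for breathing at birth, read 550, 608 and 573 normalized counts in WT serum/LIF and 1657, 1602 and 1593 after RA. DKO libraries read 629, 741 and 729 in serum/LIF and 1412, 1375 and 1326 after RA. As for Meis1, DKO was above WT in serum/LIF and below it after RA, with no overlap in either medium. The rise was 2.80-fold in WT (1.49 ± 0.07 on the log2 scale, limma adjusted p = 1.04e-15) and 1.96-fold in DKO (0.97 ± 0.07, limma adjusted p = 5.27e-12).

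Pbx4, a PBX gene known mainly from testis, had the smallest rise. It read 205, 199 and 203 normalized counts in WT serum/LIF and 323, 336 and 341 after RA. DKO read 205, 297 and 265 in serum/LIF and 303, 316 and 348 after RA. DKO replicate 1 in serum/LIF lay within the WT range, and the genotypes overlapped in both media. Pbx4 rose 1.65-fold in WT (0.72 ± 0.13 on the log2 scale, limma adjusted p = 1.48e-05) and 1.26-fold in DKO (0.35 ± 0.13, limma adjusted p = 0.0151). The DKO call was lost without DKO serum/LIF replicate 1 (0.20, limma adjusted p = 0.145) and without DKO RA replicate 3 (0.29, limma adjusted p = 0.0700).

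**Figure D2:**
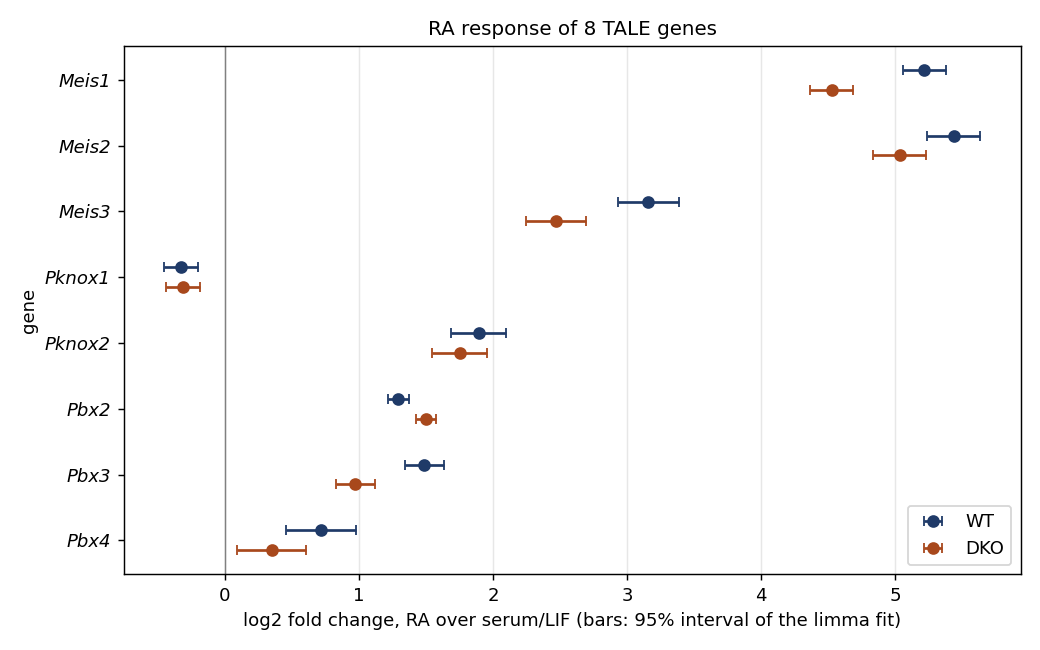
Log2 fold change, RA over serum/LIF, of the 8 TALE genes in WT and DKO; points are limma estimates and bars their unadjusted 95% intervals. Meis2 has the largest estimate in both genotypes, 5.44 and 5.03, and Pknox1 is the only gene of the 8 left of 0.

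Levels of different genes can be compared only per length, here as normalized counts per kb of 1 annotated transcript. In WT serum/LIF the order was Pbx2 (906 ± 10.2 per kb, SD, n = 3), Pknox1 (357 ± 13.7), Pbx3 (223 ± 11.3), Pbx4 (130 ± 2.12), then Meis2 (76.7 ± 12.9), Meis3 (75.8 ± 15), Pknox2 (73.7 ± 8.35) and Meis1 (64.1 ± 7.55). The last 4 did not differ beyond their spread. In DKO serum/LIF the first 4 were the same genes, at 907, 292, 270 and 164 per kb, and Meis1 was again last at 80.2 per kb. After RA, Meis2 stood at the top in both genotypes. In WT, Meis2 stood at 3305 ± 143 per kb, Meis1 at 2385 ± 59.9, Pbx2 at 2218 ± 42.4, Meis3 at 674 ± 12.9 and Pbx3 at 625 ± 13.5. Pknox1 (284 ± 5.99 per kb) and Pknox2 (274 ± 18.6) did not differ beyond their spread, and Pbx4 was last at 214 ± 5.83. In DKO the order after RA began with Meis2 (3479 ± 12.5 per kb) and Pbx2 (2567 ± 15.1), with Meis1 next at 1847 ± 75.5, so Meis1 and Pbx2 exchanged places between the genotypes.

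These changes altered the make-up of each subfamily. Meis3 was 34.9% ± 2.82 (SD, n = 3) of the MEIS counts per kb in WT serum/LIF and 10.6% ± 0.508 after RA. In DKO it was 41.0% ± 2.48 and then 11.9% ± 0.238. Meis2 was the largest share after RA, 51.9% ± 0.755 in WT and 57.6% ± 0.956 in DKO. Meis1 made up 37.5% ± 0.394 in WT after RA and 30.5% ± 0.745 in DKO. Pknox1 went from 82.9% ± 1.22 of the PKNOX counts per kb to 51.0% ± 2.19 in WT, and from 73.1% ± 2.05 to 39.4% ± 2.30 in DKO. Pknox2 was thus the larger part of the pair after RA in DKO. Pbx2 held between 67.7% and 77.7% of the counts per kb of Pbx2, Pbx3 and Pbx4 in every group mean.

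**Figure D3:**
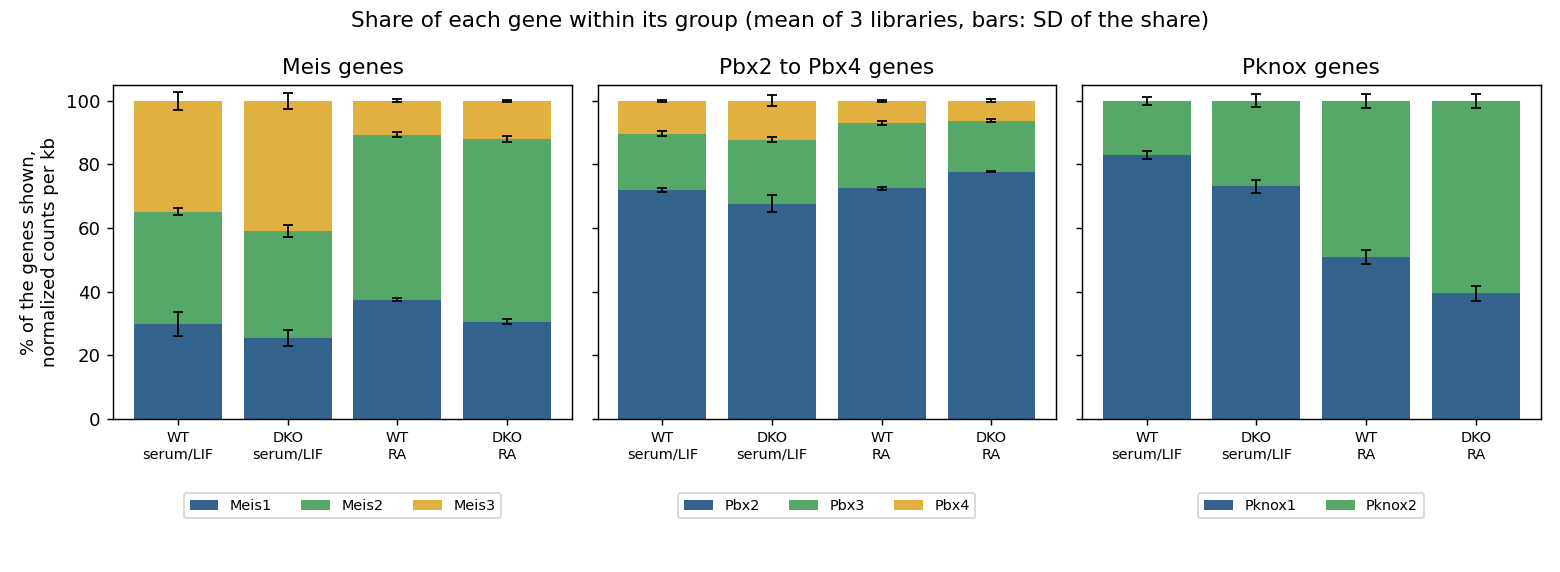
Share of each gene in the normalized counts per kb of its subfamily, by genotype and medium (stacked bars, mean of 3 libraries; error bars are the SD of the share; the middle panel covers Pbx2, Pbx3 and Pbx4 only). Meis3 shrinks from 34.9% to 10.6% and Pknox1 from 82.9% to 51.0% in WT, while Pbx2 stays the largest part of its panel.

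The double knockout raised 5 of the 8 genes and lowered 1 in serum/LIF. Both directions were common there: 33.2% of all genes tested were called, 17.8% as higher and 15.4% as lower in DKO. The median log2 difference of the 8 genes was 0.32, against -0.01 over all genes. Meis3 differed most, 1.71-fold higher in DKO (0.78 ± 0.11 on the log2 scale, limma adjusted p = 3.71e-06). Pknox2 was 1.46-fold higher (0.55 ± 0.10, limma adjusted p = 0.000130) and Meis2 1.39-fold higher (0.48 ± 0.09, limma adjusted p = 0.000516). Meis1 (1.25-fold, 0.32 ± 0.08) and Pbx3 (1.21-fold, 0.27 ± 0.07) were also higher, with limma adjusted p of 0.00245 and 0.00374.

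Pknox1 was the gene that was lower in DKO in serum/LIF. It fell by 0.29 ± 0.06 on the log2 scale (limma adjusted p = 0.000734). Pbx2 showed no call, with an estimate of 0.00 and a 95% interval from -0.08 to 0.08. Pbx4 was 1.26-fold higher by its means, 0.32 ± 0.13 on the log2 scale, and missed the threshold (limma adjusted p = 0.0542). Without DKO serum/LIF replicate 1, Pbx4 passed it (0.47, limma adjusted p = 0.00596), as it did with edgeR and with DESeq2 on the recovered reads (adjusted p = 0.0441 and 0.0418). The authors' deposited table lists Pbx4 at an adjusted p of 0.0513 and has the same 5 higher and 1 lower.

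After RA the genotype differences pointed both ways: 2 of the 8 genes were higher and 3 lower in DKO. Over all genes tested 42.7% were called, 22% as higher and 20.7% as lower, so calls in both directions were common. The median difference was 0.01 for the 8 genes and 0.01 for all genes. Meis1 fell by 0.37 ± 0.08 on the log2 scale (limma adjusted p = 0.000513), Pknox1 fell by 0.27 ± 0.06 (limma adjusted p = 0.000872) and Pbx3 fell by 0.24 ± 0.07 (limma adjusted p = 0.00814). Pknox2 was 1.33-fold higher in DKO (0.41 ± 0.10, limma adjusted p = 0.00190) and Pbx2 1.16-fold higher (0.21 ± 0.04, limma adjusted p = 7.36e-05). The other 3 genes were not called. Their 95% intervals of the log2 difference ran from -0.12 to 0.27 for Meis2, from -0.13 to 0.31 for Meis3 and from -0.31 to 0.21 for Pbx4. The authors' deposited table also gave 2 higher and 3 lower.

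**Figure D4:**
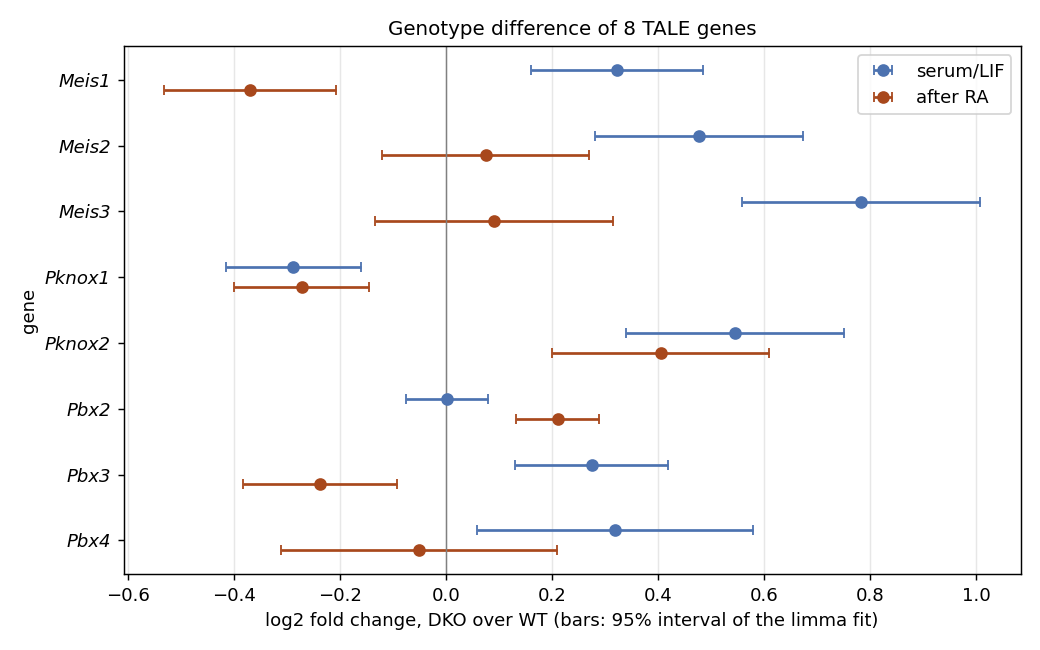
Log2 fold change, DKO over WT, of the 8 TALE genes in serum/LIF and after RA; points are limma estimates and bars their unadjusted 95% intervals. Meis1 and Pbx3 lie right of 0 in serum/LIF and left of it after RA, Pknox1 lies left of 0 in both, and Pknox2 right of 0 in both.

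The test of the difference itself, the interaction of genotype and RA, called 5 of the 8 genes, 1 with a larger and 4 with a smaller RA response in DKO. Over all genes it called 30.8%, 14.8% in the larger and 16% in the smaller direction, and the median was -0.39 for the 8 genes and 0.00 for all. The interaction was -0.69 ± 0.11 for Meis1 (limma adjusted p = 3.87e-05), -0.69 ± 0.15 for Meis3 (limma adjusted p = 0.00123) and -0.51 ± 0.10 for Pbx3 (limma adjusted p = 0.000326). For Meis2 it was -0.40 ± 0.13 (limma adjusted p = 0.0257). For Meis3 and Meis2 the genotypes differed in serum/LIF, and no difference was called after RA. Pbx2 had the larger response, with an interaction of 0.21 ± 0.05 (limma adjusted p = 0.00412). Pknox1 (0.02, interval -0.16 to 0.19) and Pknox2 (-0.14, interval -0.43 to 0.15) had no call, and nor did Pbx4 (-0.37 ± 0.18, limma adjusted p = 0.122). The Meis2 call was lost without the trend and robust settings (limma adjusted p = 0.109). It was also lost without WT serum/LIF replicate 1 (-0.37, limma adjusted p = 0.0744), WT serum/LIF replicate 3 (-0.31, 0.0650), DKO serum/LIF replicate 2 (-0.30, 0.0691) or WT RA replicate 1 (-0.38, 0.0556). Pbx4 passed without DKO serum/LIF replicate 1 (-0.52, limma adjusted p = 0.0214).

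Markers of other cell types moved with both factors. Counts of these markers and of the lists below are to be read beside the shares called over all genes tested. Those shares were 33.2% between genotypes in serum/LIF and 42.7% after RA. For RA they were 80.6% in WT and 78.3% in DKO, and for the interaction 30.8%. The 6 fibroblast markers (Col1a1, Col3a1 and others) summed to 7297 to 7368 normalized counts in WT serum/LIF and 22031 to 23367 in DKO serum/LIF, with 5 of 6 higher and 0 lower. After RA they summed to 49400 to 51095 in WT and 62958 to 65620 in DKO, with 4 of 6 higher. The 5 neural progenitor markers (Sox1, Nes and others) summed to 4127 to 4237 in WT and 6800 to 6998 in DKO in serum/LIF, 4 higher and 1 lower, and after RA 1 was higher and 4 lower in DKO, with sums of 11316 to 11481 and 10914 to 11187. Within DKO, RA raised 2 of these 5 and lowered 3 (median log2 fold change -1.95), with Nes at 4342 ± 128 normalized counts in serum/LIF and 9099 ± 56.0 after RA and Sox1 at 1538 ± 96.3 and 396 ± 31.7, so the sum follows Nes. The 8 stem cell markers summed to 110658 to 112644 in WT and 96833 to 98788 in DKO in serum/LIF. After RA all 8 were higher in DKO, with sums of 4231 to 4299 in WT and 6849 to 7264 in DKO. Of these 8, 5 were lower in DKO in serum/LIF, and 3 without the trend and robust settings of the fit. Neuron markers were 3 of 6 higher and 1 lower in DKO in serum/LIF, and 1 higher and 5 lower after RA. Endoderm markers were 2 of 6 and then 3 of 6 higher and 0 lower. Trophoblast markers were 3 of 5 higher and 0 lower in serum/LIF and 1 higher and 1 lower after RA, and of 4 mesoderm markers 1 was higher and 1 lower in serum/LIF and 2 were lower after RA. The neuron count in serum/LIF was 2 in all without the trend and robust settings, without WT serum/LIF replicate 2 or without DKO serum/LIF replicate 2. Leaving out single libraries took these counts to 2 to 4 for neuron and endoderm markers in serum/LIF, and after RA to 1 to 3 for endoderm, 1 to 2 for mesoderm and 1 to 2 for trophoblast markers. Without WT RA replicate 2 each of these last 3 was 1. No tested marker was at 0 in a group. The part of cell type makeup in the TALE results was not tested, and in bulk RNA more cells of a type cannot be told apart from more RNA per cell.

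The other TALE homeobox genes in the table were grouped in a list of 9 genes, of which 8 were tested. In serum/LIF 4 were higher in DKO and 0 lower, among them Irx3 (0.98 ± 0.13 on the log2 scale, limma adjusted p = 6.55e-06) and Irx5 (0.72 ± 0.16, limma adjusted p = 0.00119), Iroquois genes that act in neural tube and heart patterning. Without DKO serum/LIF replicate 2 only 2 were called. After RA 3 were higher and 2 lower in DKO: Irx3 fell by 0.52 ± 0.13 and Irx5 fell by 0.61 ± 0.16, while Mkx, a tendon regulator, was higher by 1.04 ± 0.23. Irx3 read 126 ± 33.3 normalized counts in WT serum/LIF and 243 ± 4.78 in DKO, then 3993 ± 353 and 2771 ± 91.3 after RA. Irx3 therefore had the order of groups seen for Meis1 and Pbx3, DKO above WT before RA and below it after. RA raised 4 of the 8 in each genotype and lowered 3 in WT and 2 in DKO. Tgif1, a repressor that limits RA and TGF-beta signalling, fell by 0.95 ± 0.05 in WT and fell by 0.96 ± 0.05 in DKO on the log2 scale. The interaction called 2 in each direction, with Irx3 at -1.5 ± 0.18 and Irx5 at -1.33 ± 0.23. Without WT RA replicate 1 or without DKO RA replicate 3 it called 2.

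Of 39 Hox genes, the DNA-binding partners of PBX, 32 were tested. RA raised 28 and lowered 1 in WT, and raised 29 and lowered 0 in DKO, with median log2 fold changes of 6.28 and 6.50. These medians are the same with genes that had no read in serum/LIF set at a floor of 3 reads over the group. Hoxb8 read 12.4 ± 2.49 normalized counts in WT serum/LIF and 7271 ± 459 after RA, and in DKO 16.5 ± 4.39 and 3906 ± 204. Between genotypes 1 of the 32 was higher and 8 lower in DKO in serum/LIF, and 1 higher and 8 lower after RA. Over all genes tested, 17.8% were higher and 15.4% lower in serum/LIF, and 22% and 20.7% after RA. In either direction the all-gene shares of the limma fit were 33.2% and 42.7%, so in that fit being called was not particular to the Hox genes. After RA this does not carry over to the other tests given below, which called more Hox genes. The median differences of the Hox genes were -0.31 in serum/LIF (-0.26 with that floor) and -0.42 after RA. In serum/LIF, Hoxb2 fell by 0.89 ± 0.12 and Hoxa3 fell by 1.18 ± 0.18 on the log2 scale in DKO, a direction opposite to that of the 3 MEIS genes. Hoxa2, the 1 Hox gene called higher there, went with the MEIS genes (0.70 ± 0.17). After RA, among the 8 called lower, Hoxb8 fell by 0.90 ± 0.15 and Hoxa7 fell by 1.62 ± 0.36. The interaction called 4 higher and 4 lower, with Hoxb8 at -1.27 ± 0.21. The count after RA depended on the test: edgeR on the recovered reads called 4 higher and 20 lower, DESeq2 6 higher and 20 lower.

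Genes with textbook enhancers bound by HOX-PBX-MEIS or PKNOX complexes were a list of 10, 9 of them tested. The list shares its Hox genes with the Hox list. All 9 rose with RA in both genotypes, with medians of 5.00 in WT and 5.89 in DKO. Hoxa2, a hindbrain and neural crest patterning gene, rose by 5.00 ± 0.17 in WT and 3.66 ± 0.17 in DKO on the log2 scale. In serum/LIF 2 were higher and 4 lower in DKO, and Pax6, an eye and neural regulator, fell by 0.95 ± 0.12. Pax6 also fell by 1.12 ± 0.12 after RA, where 1 was higher and 2 lower. That count was 2 higher and 4 lower with edgeR, 3 and 4 with DESeq2, and 3 and 3 with a pseudocount of 10. The interaction called 3 higher and 2 lower, including Hoxa2 at -1.34 ± 0.25.

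Proteins that bind PBX, MEIS or PKNOX formed a list of 9, all tested. Pbxip1, which binds PBX proteins and keeps them from DNA, rose by 1.96 ± 0.07 on the log2 scale in WT with RA and by 2.01 ± 0.07 in DKO. Mybbp1a, a binding partner of PKNOX1, fell by 1.59 ± 0.03 in WT and fell by 1.42 ± 0.03 in DKO. In all, RA raised 4 and lowered 4 in WT and raised 5 and lowered 4 in DKO. Between genotypes 2 were higher and 1 lower in DKO in serum/LIF, and 5 higher and 1 lower after RA, where Myh9, a non-muscle myosin heavy chain, was higher by 0.41 ± 0.04. Without WT RA replicate 1 the count after RA was 3. The interaction called 3 higher and 0 lower, and 6 without WT RA replicate 3.

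All 9 textbook RA targets rose with RA in both genotypes, with median log2 fold changes of 5.99 in WT and 5.76 in DKO, and Cyp26a1, the enzyme that degrades RA, rose by 8.08 ± 0.09 and 8.47 ± 0.09. Between genotypes 1 was higher and 4 lower in DKO in serum/LIF, and 3 higher and 2 lower after RA. Stra6, a retinol transporter, fell by 2.28 ± 0.13 on the log2 scale in DKO after RA, while Crabp2, which carries RA into the nucleus, was higher by 0.37 ± 0.05. The interaction called 5 higher and 2 lower.

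The genes whose log2 levels followed each TALE gene most closely over the 12 libraries were taken from 12359 genes with a mean of at least 100 normalized counts in their highest group. Pearson's r is a description here, since the libraries fall into 4 groups and are shared by all genes. Meis1 was followed most closely by Tshz1 (r = 0.9996) and Hoxb8 (r = 0.999). Tshz1 read 110, 154, 8963 and 7220 mean normalized counts in WT serum/LIF, DKO serum/LIF, WT RA and DKO RA, the same order of groups as Meis1. The closest genes were Gpc3 and Zfp362 for Meis2, Mecom and Nrep for Meis3, Zfp503 and Ski for Pbx2, Igdcc3 and Sparc for Pbx3, and Csrp1 and Homer3 for Pknox2. For Pbx4 they were Insyn1 (r = 0.960) and Fam8a1 (r = 0.959), and for Pknox1 Rbm43 (r = 0.980) and Aass (r = 0.976). An r of 0.99 or more was reached by 293 genes for Meis1, 332 for Meis2, 170 for Meis3, 206 for Pbx2, 60 for Pbx3 and 47 for Pknox2, and by 0 for Pbx4 and Pknox1. High likeness to a strongly induced gene was therefore common.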

How the data were processed

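Paired-end RNA-seq of 12 libraries was used. Per the submitters' processing notes, reads were handled with STAR 2.7.11b and Trim Galore 0.6.10, with featureCounts (Subread 2.0.6) and with DESeq2 1.44.0, on mm10. How multiply mapping reads and strand were counted was not given in the sources used here, so antisense reads cannot be told apart from those of the gene. The deposited library columns hold a signal, the normalized count, which is reads divided by a size factor of each library; 100% of values came out as whole reads within 0.01 after multiplying back. Per the file headers, the authors also deposited log2 fold changes, their standard errors, p-values and a score, the Wald statistic.

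Values were transformed as log2(value + 1), which understates changes of low genes, and 15750 of 17901 genes were kept, those reaching 10 normalized counts in no fewer than 3 libraries. One limma 3.58.1 fit in R 4.3.3 (empirical Bayes, trend and robust) with 4 group means gave the contrasts, and p-values were adjusted over all genes kept. The script was tested on simulated data. Alternatives were edgeR 4.0.16, DESeq2 1.42.0, TMM scaling, other pseudocounts and filters, a replicate block and leaving out each library. Transcript lengths came from GENCODE by RefSeq accession.

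The named genes are the 8 members, the knocked-out genes, the 2 genes most alike to each member, and at most 4 called genes per list, by smallest adjusted p; 1 gene that this rule names is not reported here. The members and lists were chosen with earlier results of these data known. Other genes of the MEIS, PBX and PKNOX subfamilies are not analysed here, nor is the deposited table of repeats.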

Additional observations from a re-analysis of the deposited data

Results flagged for a closer look

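The RA response differed between WT and DKO for 5 of the 8 genes by the interaction term of the limma fit, in which the genotype effect in serum/LIF is subtracted from that after RA. The values on the log2 scale were -0.69 for Meis1, -0.40 for Meis2, -0.69 for Meis3, 0.21 for Pbx2 and -0.51 for Pbx3. Meis1 and Pbx3 are the genes of the 8 in which the genotype difference was called in both media with opposite signs: 0.32 in serum/LIF and -0.37 after RA for Meis1, 0.27 and -0.24 for Pbx3. Dixon's test for an outlying value was not applied to single genes, since the groups hold 3 libraries.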

How the results depend on the processing

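Counts of called genes among the 8 were within 1.5 times the reported count under every alternative run, and so were the counts over all genes. Leaving out each library in turn gave 6 to 7 of 8 for the genotype effect in serum/LIF, 5 after RA, 8 for RA in WT, 7 to 8 for RA in DKO and 4 to 6 for the interaction. The calls over all genes ranged from 4409 to 5485, 5727 to 6841, 12315 to 12748, 11828 to 12412 and 4242 to 4792 in that order. Same-numbered libraries showed no shared deviation (correlations from -0.032 to 0.051). This cannot show whether they were grown or prepared together. A fit with the replicate block called 6, 5, 8, 8 and 5 of the 8 genes and 5061, 6537, 12651, 12282 and 4662 of all genes. Sign changed only where the estimate was near 0: Pbx2 in serum/LIF was -0.00519 without WT replicate 3 and -0.0068 without DKO replicate 3 (leaving out single libraries, up to 0.0109), and the Pknox1 interaction was -0.00325 without WT serum/LIF replicate 2 and -0.0439 without DKO RA replicate 1 (up to 0.0476). Pbx4 in serum/LIF also passed with a filter of 50 (limma adjusted p = 0.0493), and the Meis2 interaction was lost without the trend and robust settings (limma adjusted p = 0.109); the cause was not tested. TMM moved the median of all genes by less than 0.01. Counts of the lists under the alternatives were added after seeing the data. For DKO against WT after RA, Hox calls were 9, with edgeR 24, DESeq2 26 and a pseudocount of 10 19. For the enhancer genes they were 3 against 6, 7 and 6, for RA targets 5 against 8 with DESeq2, and for binding proteins 6 against 3 without the trend and robust settings. For the interaction, Hox calls were 8, 13 with a pseudocount of 10 and 5 without trend and robust settings, which also took the other TALE genes from 4 to 2. Depth limits the low genes most: the lowest group, Meis3 in WT serum/LIF, rests on 396 reads.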
